A study of Mus musculus with 8 samples.

Results

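The T cell receptor complex and its signalling genes were followed in Pax5-deficient precursors of mouse B cells. The set held 10 genes, Cd3e, Cd3d, Cd3g, Lck, Zap70, Lat, Grap2, Cd28, Cd7 and Thy1, chosen by name. All 15 probes that the array files name for them were read, out of 41174 non-control probes, and 13 of the 15 passed the filter on dim signals. For each gene the probe of highest mean intensity (probe 1) stood for the gene, and all 10 genes were among the 20702 features tested. Total RNA came from bone marrow Pax5-/- pro/preB cells grown on a feeder layer of irradiated OP9 stromal cells with IL-7 in the medium. Clone 4 held human Pax5 (huPax5) in a vector that responds to doxycycline through another vector for the transactivator rtTA. It was given doxycycline at 10, 300 or 1000 ng/ml. Pax5sz2 cells had received the rtTA vector alone; their label names doxycycline but no dose. Each of these 4 RNAs, called the named RNA here, was hybridised against clone 4 without doxycycline (0 ng/ml, the control RNA) on 2 two-colour arrays, once with the named RNA in Cy5 and once in Cy3. All groups therefore lacked mouse Pax5, clone 4 is 1 clone, and the transgene, doxycycline and other differences between Pax5sz2 and clone 4 cannot be told apart.

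In T cells the CD3 chains carry the signal of the receptor into the cell. The kinase Lck phosphorylates them, the kinase Zap70 docks on the phosphorylated chains and then phosphorylates the adaptor Lat, and Grap2 (also called Gads) links Lat to further adaptors. Cd28 gives the costimulatory signal, Cd7 is a surface glycoprotein of T and NK cells and their precursors, and Thy1 is a glycolipid-anchored surface protein of mouse T cells and of many stromal cells. Pax5 commits precursors to the B lineage, and precursors without it keep the ability to enter other lineages, the T lineage among them.

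The RefSeq promoter table (GRCm38.p6) held starts for 7 of the 10 genes. The 250 bases before the start are shown for Zap70 (the first of its 3 starts, chr1:36761548-36761797, plus strand) and Grap2 (chr15:80623233-80623482, plus strand), the kinase and the adaptor that lay near or past a 2-fold difference in the same comparisons. Capitals mark matches to 3 motifs, searched on both strands after the letters had been seen: GCNTGAC (part of the Pax5 recognition sequence), CAGGAAG (an ETS site) and TGTGGT (a RUNX site).
Zap70: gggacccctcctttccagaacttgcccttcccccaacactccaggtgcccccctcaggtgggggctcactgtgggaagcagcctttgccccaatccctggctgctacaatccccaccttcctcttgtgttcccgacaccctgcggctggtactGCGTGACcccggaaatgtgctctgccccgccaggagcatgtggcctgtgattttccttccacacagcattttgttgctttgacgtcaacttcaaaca
Grap2: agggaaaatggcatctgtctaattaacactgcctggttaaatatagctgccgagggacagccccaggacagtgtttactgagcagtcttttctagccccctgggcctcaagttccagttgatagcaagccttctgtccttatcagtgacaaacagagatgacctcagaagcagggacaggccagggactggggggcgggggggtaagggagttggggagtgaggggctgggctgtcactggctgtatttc
The printed Zap70 window held 1 match, to GCNTGAC, beginning at position -97 from the start, and the Grap2 window held none of the 3. The windows of the other Zap70 starts held no GCNTGAC. The second held 1 match to CAGGAAG and 1 to TGTGGT, and the third held none of the 3 motifs. Among 32851 promoter windows of the same length, 8.79% held GCNTGAC, 10.8% CAGGAAG and 14.0% TGTGGT. A match is only a description of the letters.

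A comparison rested on 1 RNA sample read on 2 technical arrays, so no single comparison has a p-value, and the number after ± is the SD between both arrays. Ratios are log2 of named over control RNA, levels are normalized log2 channel signals, and a gene is said to have passed the 2-fold size if its ratio was at least 2-fold on both arrays in the same direction. The control RNA carries the same label in the 4 comparisons, and the labels do not say whether it was 1 preparation. The share of spots well above background per channel was 40.4% to 45.1% in the 1000 ng/ml pair and 59.5% to 75.5% on the later 6 arrays; the scanner's multiplier for that call was 2.6 in the former and 13 in the latter. The 1000 ng/ml pair was also scanned in an earlier batch, so that dose and batch cannot be told apart. Its direction was not settled. Against the 300 ng/ml array of like dye orientation its ratios were negatively correlated across all probes, which are not independent replicates (r = -0.36 for the Cy5 arrays and r = -0.46 for the Cy3 arrays, by the dye of the named RNA). Its values are given as labelled, and all of its signs and sides change if the pair is turned. In these bulk samples, fewer cells of a type and less RNA per cell cannot be told apart.

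Of the 10 genes, Cd7, Zap70, Grap2, Cd28 and Thy1 passed the size in at least 1 comparison. The 3 CD3 chains, Lck and Lat passed it in none, with Lck close to it at 1000 ng/ml and Lat at 300 ng/ml read differently by its 2 arrays. Grap2, Cd28 and Thy1 no longer passed it when their detected probes were averaged. Shares of all features are given per comparison below, and not for passing in any of the 4. With 10 ng/ml, Cd7 was lower, and 0 of the 10 genes were higher. The same size was passed in the higher direction by 0.594% and in the lower by 1.28% of all features. With 300 ng/ml, Zap70 and Cd7 were lower and 0 were higher, against 1.28% of all features higher and 2.39% lower. At 1000 ng/ml as labelled, Zap70, Grap2, Cd28 and Cd7 were higher and 0 were lower, against 1.89% of all features higher and 0.618% lower; with the pair turned, the 4 genes would be lower. In Pax5sz2, Cd7 and Thy1 were higher and 0 were lower, against 2.28% of all features higher and 2.86% lower. From the lowest dose up, the median ratio of the 10 genes was -0.093, -0.58 and, as labelled, 0.50, and in Pax5sz2 it was 0.15. Over all features the medians were 0.012, 0.00061, 0.0042 and 0.025. The 300 ng/ml median of the 10 genes depends on Lat (-1.02 ± 1.5) and Cd28 (-0.97 ± 0.79), whose 2 arrays disagreed.

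**Figure D1:**
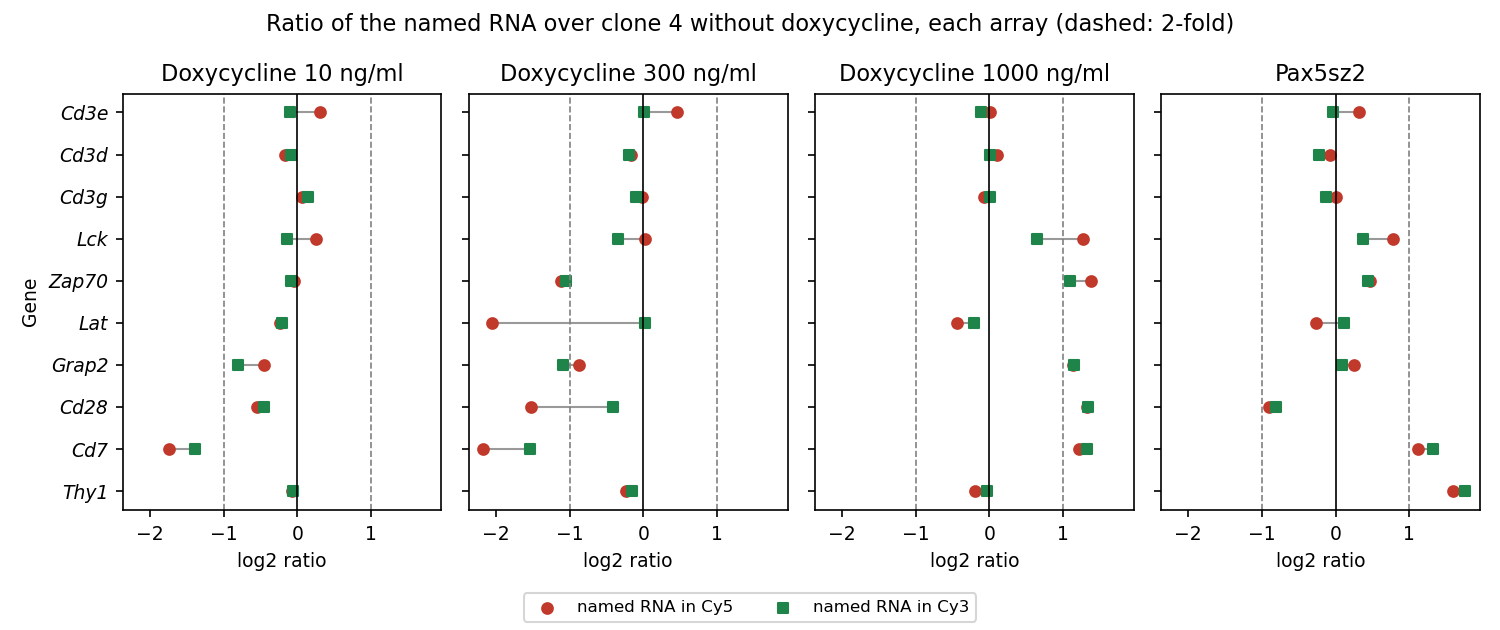
Log2 ratio of the named RNA over clone 4 without doxycycline (x axis) for the 10 genes (y axis), with 1 panel per comparison. Red circles are arrays with the named RNA in Cy5, green squares those with it in Cy3, and dashed lines mark a 2-fold difference. Cd7 lies beyond the lower line on both arrays at 10 and 300 ng/ml and beyond the upper line in Pax5sz2, whereas the 2 arrays of Lat at 300 ng/ml lie at -2.05 and 0.017.

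Of the genes of the CD3 chains, Cd3e was measured in every RNA, and Cd3d and Cd3g were at or near background. Their probes lie close together on chromosome 9 in mm8, the build of the array design. Cd3e (epsilon chain) was read by chr9:44750166-44750225, which was above background in both RNAs on all 8 arrays. Its ratios (Cy5 array first here and below) were 0.31 and -0.097 for the 10 ng/ml RNA, 0.46 and 0.014 for 300 ng/ml, 0.0098 and -0.12 for 1000 ng/ml, and 0.32 and -0.037 for Pax5sz2. In all 4 comparisons the array with the named RNA in Cy5 gave the higher ratio, by 0.13 to 0.45, and the means ran only from -0.054 ± 0.09 to 0.24 ± 0.32. The other Cd3e probe, chr9:44754896-44754955, was not above background in either RNA on any array. Cd3d (delta chain, chr9:44737083-44737314) was above background in the named RNA on 3 arrays and in the control RNA on 4. Its mean ratios ran from -0.18 to 0.059. Cd3g (gamma chain, chr9:44724628-44725212) was above background in the named RNA on 3 arrays and in the control RNA on 1, with mean ratios from -0.064 to 0.10. The channel levels of Cd3d and Cd3g lay between 5.98 and 6.49 on every array. At such levels a difference in Cd3d or Cd3g was not detectable with the offset used. With the scanner's processed signals, which carry no offset, Cd3d was at -1.67 for 300 ng/ml and passed the size, although the named RNA was not above background there.

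Of the kinases, Lck was bright in every RNA. It was read by chr4:129050906-129050965, with control levels from 11.19 to 11.70 on the 6 later arrays. Its ratios were 0.25 and -0.14 for the 10 ng/ml RNA, 0.02 and -0.34 for 300 ng/ml, 1.27 and 0.64 for 1000 ng/ml, and 0.78 and 0.37 for Pax5sz2. The 2 arrays thus lay on either side of 0 at the lower doses, and both above 0 in the other comparisons, with 1 array short of the size at 1000 ng/ml. The means were 0.054 ± 0.28, -0.16 ± 0.25, 0.95 ± 0.45 and 0.58 ± 0.30. The ratio was higher with the named RNA in Cy5 in 4 of 4 comparisons, by 0.36 to 0.63, which the mean over the dye swap balances.

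Zap70 (chr1:36725911-36725970), whose first promoter is printed above, did not differ at 10 ng/ml and was lower at 300 ng/ml. At 10 ng/ml the named levels were 8.49 and 8.69 and the control levels 8.53 and 8.78, and the ratio was -0.066 ± 0.033. With 300 ng/ml the named levels were 7.54 and 7.58 against control levels of 8.66 and 8.62. Both named values lay below both control values, with ratios of -1.12 and -1.05 (-1.08 ± 0.054, or 2.12-fold lower). Normalizing each array by median centring in place of loess left Zap70 at -1.11 on average but no longer past the size on both arrays. In the 1000 ng/ml pair the named levels were 8.83 and 8.15, and the control levels, 7.45 and 7.05, were not well above background on either array. The ratios were 1.38 and 1.09. Taken as a bound against the detection level of the arrays, the named RNA (mean 8.49) was at least 2.13-fold higher than the control (mean 7.25), as labelled. With median centring Zap70 did not pass the size in this pair. In Pax5sz2 the named levels were 9.22 and 9.28 against 8.75 and 8.84, a ratio of 0.46 ± 0.019. Leaving aside the 1000 ng/ml pair, whose direction is unsettled, the mean ratios from the lowest were in the order 300 ng/ml, 10 ng/ml and Pax5sz2, and each step was larger than the SD of either pair of arrays.

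The adaptor Lat was bright throughout (chr7:126155353-126155412, control levels from 11.89 to 12.40 on the 6 later arrays). Its mean ratio was -0.22 ± 0.023 for the 10 ng/ml RNA, -0.32 ± 0.16 for 1000 ng/ml and -0.069 ± 0.27 for Pax5sz2. The 300 ng/ml arrays disagreed, with -2.05 when the named RNA was in Cy5 and 0.017 when it was in Cy3 (mean -1.02 ± 1.5). The red signal of the spot was 1564 intensity units on the first of these arrays, and between 4799 and 10755 on the 7 others. The 115 spots within 5 rows and columns of it, read after the disagreement was seen, had a median ratio of -0.69 on that array and 0.0015 on its dye swap. The ratios from the scanner's own processed signals were -0.66 and -0.04. No difference in Lat at 300 ng/ml held on both arrays.

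Grap2 had 3 probes, which disagreed. The brightest, chr15:80479787-80479846, gave ratios of -0.45 and -0.81 at 10 ng/ml (-0.63 ± 0.25), and -0.87 and -1.09 at 300 ng/ml (-0.98 ± 0.15). The named levels at 300 ng/ml were 10.80 and 10.58, below both control levels of 11.67, and the gene lay just short of the size. At 1000 ng/ml as labelled the named levels were 9.93 and 10.84 and the control levels 8.79 and 9.69. The ratios of 1.14 and 1.15 (1.14 ± 0.0085) passed the size on both arrays, although the level of either RNA differed between the arrays by nearly as much, so that the ranges of the RNAs almost touched. In Pax5sz2 the ratio was 0.17 ± 0.12. A second probe, chr15:80475919-80475978, gave 0.32 ± 0.13 for the 10 ng/ml RNA, 0.32 ± 0.021 for 300 ng/ml, 0.25 ± 0.02 for 1000 ng/ml and 0.82 ± 0.11 for Pax5sz2. It was above background in both RNAs on all 8 arrays, and its sign was opposite to that of the brightest probe at 10 and 300 ng/ml. The last probe, chr15:80476606-80476665, was above background in 2 of 8 arrays in each RNA and did not pass the filter. With the detected probes averaged, Grap2 was at -0.33 for 300 ng/ml and at 0.70 for 1000 ng/ml, which no longer passed the size.

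Cd28, the costimulatory receptor gene, was read best by chr1:60717381-60717440. Its ratios were -0.54 and -0.45 at 10 ng/ml (-0.50 ± 0.062). For 300 ng/ml they were -1.53 and -0.41 (-0.97 ± 0.79), with named levels of 6.96 and 8.04 against control levels of 8.49 and 8.45. Both named levels lay below both control levels, but only 1 array showed a 2-fold difference. The spots around this one had a median ratio of -0.35 on the array with the larger difference and 0.073 on the other. At 1000 ng/ml as labelled the named levels were 8.62 and 7.87, and the control levels of 7.30 and 6.53 were not well above background. The ratios were 1.32 and 1.34, and the named RNA (mean 8.24) was at least 1.89-fold higher than the control (mean 6.92). In Pax5sz2 the ratios were -0.91 and -0.81 (-0.86 ± 0.074, 1.81-fold lower), short of the size; with the scanner's processed signals the mean was -1.13 and the size was passed. The dimmer probe, chr1:60708569-60708628, was above background in the named RNA on 5 arrays and in the control RNA on 3, and its mean ratios ran from -0.30 at 300 ng/ml to 0.063 at 10 ng/ml.

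Cd7 (chr11:120852844-120852903, 1 probe) showed the lowest ratios of the 10 genes at both 10 and 300 ng/ml. At 10 ng/ml the named levels were 6.61 and 6.98 and the control levels 8.34 and 8.37. Both technical readings of the named RNA lay below both of the control RNA. The ratios of -1.74 and -1.39 (-1.57 ± 0.24) corresponded to a level 2.96-fold lower. With 300 ng/ml the named levels were 6.31 and 6.66 against 8.48 and 8.20. The ratios were -2.17 and -1.54 (-1.86 ± 0.44, 3.62-fold lower), and the means at the 2 doses differed by less than the SD at 300 ng/ml. At 1000 ng/ml as labelled the named levels were 8.49 and 7.85 and the control levels, 7.26 and 6.52, were not well above background. The ratios were 1.22 and 1.33, and the named RNA (mean 8.17) was at least 1.82-fold higher than the control (mean 6.89). In Pax5sz2 the named levels were 9.99 and 9.80 against 8.87 and 8.48, with ratios of 1.12 and 1.32 (1.22 ± 0.14, 2.33-fold higher). Cd7 was the only one of the 10 genes to pass the size in all 4 comparisons.

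Thy1 was flat at all 3 doses and higher in Pax5sz2. Its brighter probe, chr9:43799512-43799571, gave ratios of -0.072 and -0.064 at 10 ng/ml, and -0.24 and -0.15 at 300 ng/ml, and neither RNA was well above background in the 1000 ng/ml pair. In Pax5sz2 the named levels were 8.65 and 8.77 against control levels of 7.04 and 7.01. The ratios of 1.60 and 1.76 (1.68 ± 0.11) corresponded to a level 3.21-fold higher, and were the largest of the 10 genes in that comparison. The other probe, chr9:43797903-43798348, was above background only in the Pax5sz2 RNA, on both arrays, with a mean level of 6.44 against 6.15 in the control, a bound of at least 1.14-fold. Averaging both probes gave 0.99 for Thy1 and lost the size.

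**Figure D2:**
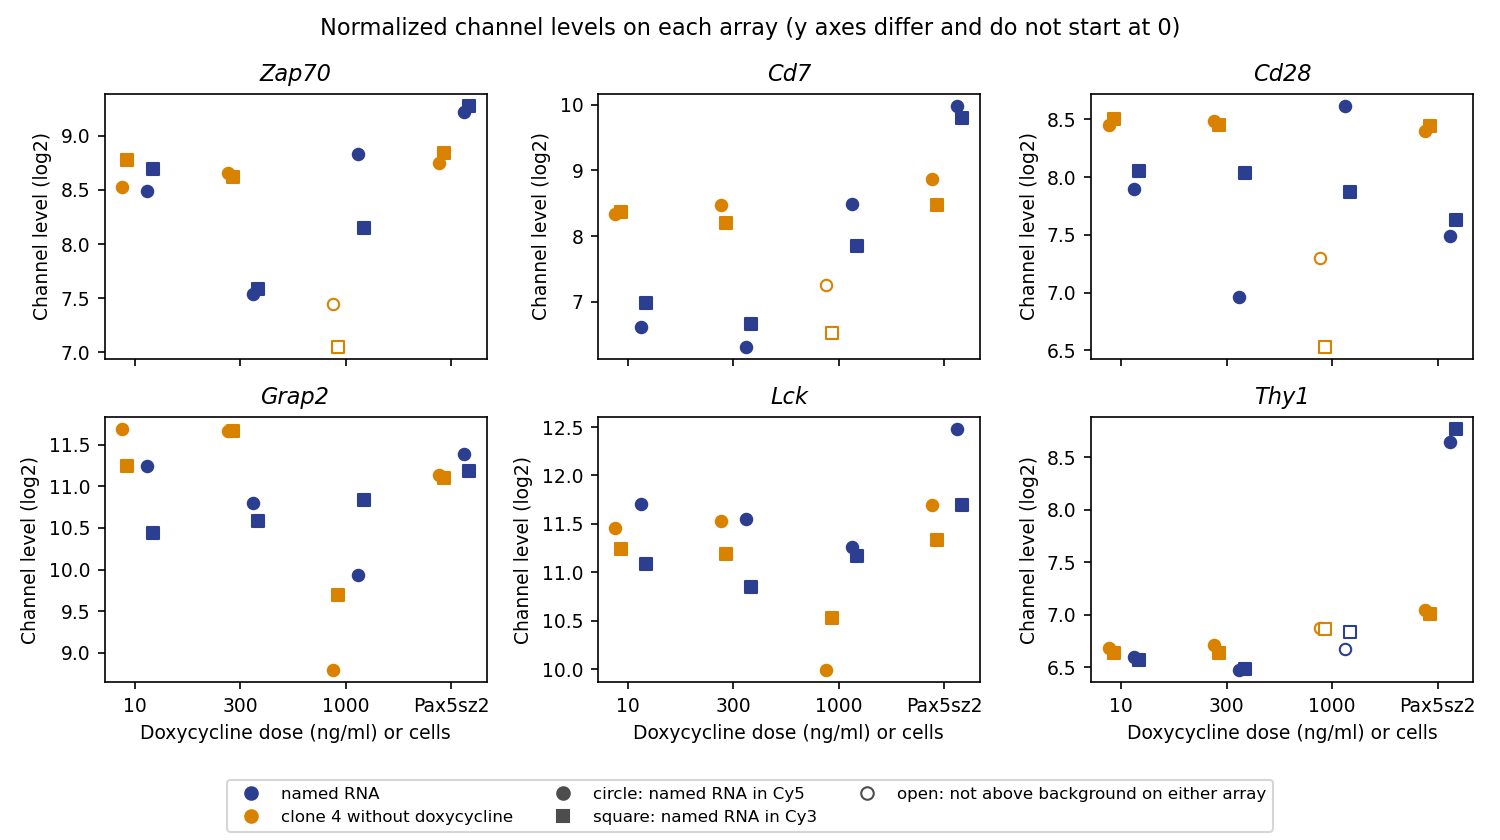
Normalized log2 channel level (y axis, a separate scale for each gene, not starting at 0) on every array of the 4 comparisons (x axis) for Zap70, Cd7, Cd28, Grap2, Lck and Thy1. Blue is the named RNA and orange the control RNA; circles and squares are the 2 dye orientations, and open symbols mark an RNA not above background on either array. The control RNA of the 1000 ng/ml pair lies below the control RNA of every other array for the first 5 genes, for example at 7.26 and 6.52 against 8.20 to 8.87 for Cd7.

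The control RNA carries the same label in all 4 comparisons, so its levels can be set side by side for 1 probe. Across the 6 later arrays they ran from 8.53 to 8.84 for Zap70, from 8.20 to 8.87 for Cd7, from 8.40 to 8.50 for Cd28 and from 11.10 to 11.69 for Grap2. In the 1000 ng/ml pair the RNA labelled as control was lower in every case, at 7.45 and 7.05, 7.26 and 6.52, 7.30 and 6.53, and 8.79 and 9.69. For Lck it was at 9.99 and 10.53, below the 11.19 to 11.70 of the later arrays. For Lat and Thy1 it was not lower, with Lat at 12.89 and 12.20 and Thy1 at 6.87 and 6.86. Scan batch, dose and the unsettled direction all move with this difference, and their part in it was not tested.

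**Figure D3:**
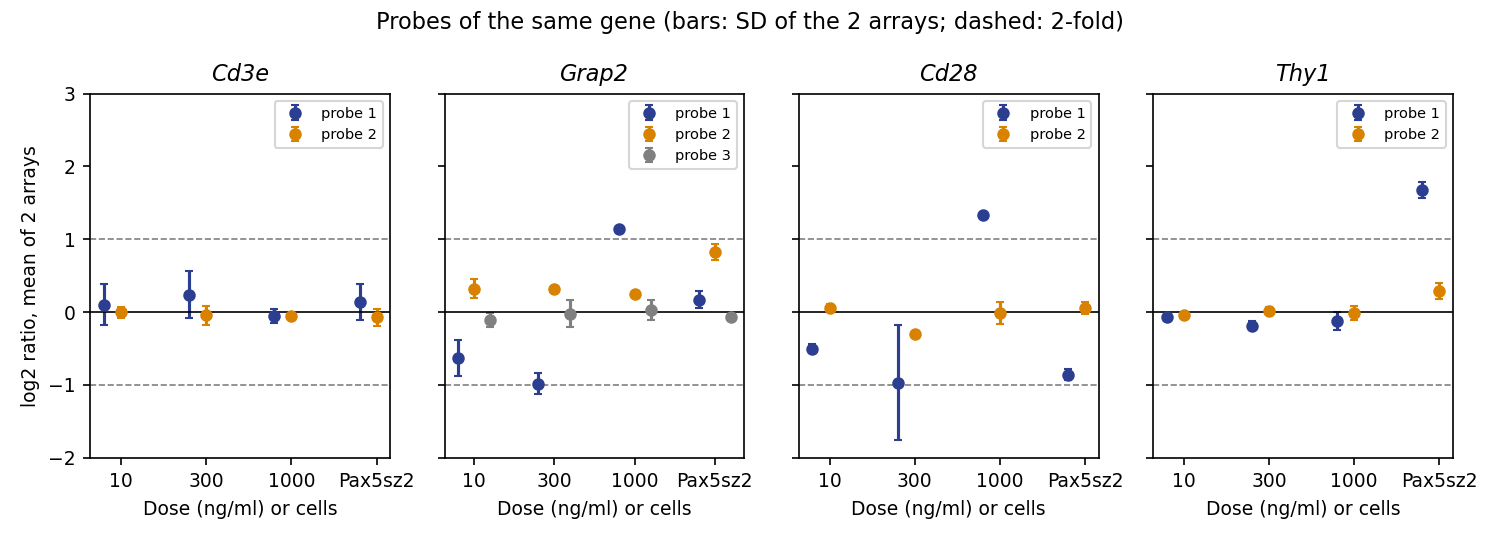
Mean log2 ratio (y axis, error bars the SD of the 2 arrays) of each probe of the 4 genes with several probes, in the 4 comparisons (x axis); dashed lines mark 2-fold. Probe 2 of Grap2 is at 0.32 at 300 ng/ml where probe 1 is at -0.98, and probe 2 of Thy1 is at 0.29 in Pax5sz2 where probe 1 is at 1.68.

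A mean over the doses was fitted with limma across 20447 features. As labelled, 0% of features passed an adjusted p of 0.05 (0 features, with 1205 at an unadjusted p under 0.05), and the smallest adjusted p among the 10 genes was 0.699. With the 1000 ng/ml pair turned, again 0 features passed limma's adjusted p, with 5057 under 0.05 unadjusted. Zap70, Grap2, Cd28 and Cd7 were among these 5057, and Cd7 was lower by a mean of -1.57 ± 0.13 (SE, adjusted p = 0.118). Without the 1000 ng/ml pair, which leaves 10 and 300 ng/ml, 15.1% of features passed, 1193 higher and 1909 lower. Cd7 fell by 1.71 on the log2 scale (SE 0.10, limma adjusted p = 0.0361) and Grap2 was at -0.80 (SE 0.12, limma adjusted p = 0.0474). Each was lower on 4 of 4 arrays, which are 2 technical arrays per dose. This fit held 1 value for each of the 2 doses and no spread of the control RNA. The fit read only the brightest probe of Grap2. Its second probe was higher on each of the same arrays, at 0.32 ± 0.13 for 10 ng/ml and 0.32 ± 0.021 for 300 ng/ml. Cd28 was at -0.73 (limma adjusted p = 0.0685), lower on 4 of 4 arrays, and Zap70 at -0.57 (limma adjusted p = 0.274). Of the other 6 genes, none passed in that fit.

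For Pax5sz2, limma borrowed the spread of the doses, on the assumption that the single sample varies like them. As labelled, 0% of 20446 features passed (0 features, 2175 at an unadjusted p under 0.05). Thy1 had the smallest adjusted p of the 10 genes, at 1.68 ± 0.11 (SE, limma adjusted p = 0.129), higher on 2 of 2 arrays. Without the 1000 ng/ml pair 4.51% of features passed, and Thy1 was among them (limma adjusted p = 0.0455), while Cd7 was at an adjusted p of 0.0556. The value of Thy1 thus did not change, and its SE was nearly the same without the 1000 ng/ml pair (0.099). Its call changed through the adjustment over all features, not through its own spread.

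Other genes of T cell receptor signalling were read as a list of 56, of which 52 were tested. They comprised the zeta chain gene Cd247, kinases and phosphatases, adaptors, coreceptors and downstream enzymes. At 10 ng/ml 0 of 52 passed the size in either direction (over all features 0.594% were higher and 1.28% lower), and the list's median ratio was -0.058. With 300 ng/ml 5 of 52 were lower and 0 higher (median -0.069), against 2.39% of all features lower and 1.28% higher. Among the 52, Tec and Nfatc1 had no mean ratio at this dose and could not pass. Cd247, the chain that carries most of the complex's phosphorylation sites, was at -1.34 ± 0.40. The rest were adaptors. Lax1, a negative regulator of lymphocyte signalling, was at -1.98 ± 0.25, and Fyb, which links the receptor to integrins, at -1.91 ± 0.41. Lat2, the relative of Lat in B and myeloid cells, was at -1.56 ± 0.042, and Pag1, which recruits the inhibitory kinase Csk, at -1.31 ± 0.06. The other probe of Fyb was at -1.04 and that of Lat2 at -2.12, but the other probe of Cd247 was at -0.49 and those of Pag1 at -0.16 and 0.023.

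At 1000 ng/ml as labelled 7 of 52 were higher and 2 lower (median 0.13), against 1.89% of all features higher and 0.618% lower. Lat2 was at 2.86 ± 0.0034 and Lax1 at 2.72 ± 0.25. The adaptor Sla2, which dampens receptor signalling, was at 1.78 ± 0.29, the inhibitory receptor Cd5 at 1.61 ± 0.32, Fyb at 1.55 ± 0.29, the docking protein Dok2 at 1.35 ± 0.20 and Cd247 at 1.31 ± 0.016. The control RNA was not well above background for Fyb (named mean 8.47, control mean 6.93, at least 2.33-fold higher) or Cd247 (8.49 and 7.18, at least 2.26-fold higher), and their other probes were at 0.44 and 0.32. Plcg1, the phospholipase downstream of Lat, was at -1.90 ± 0.031 and the kinase Prkcb at -1.77 ± 0.14. The other probe of Plcg1 was at -0.059, that of Prkcb at -0.96, that of Sla2 at 0.58 and that of Lat2 at 1.88. With the pair turned these sides would change. In Pax5sz2 1 of 52 was higher and 2 were lower (median 0.084), counts near the 2.28% higher and 2.86% lower of all features. Plcg1 was at 1.06 ± 0.021, though at -0.014 by its other probe, the transcription factor Nfatc3 at -2.22 ± 0.27 (other probe -0.74) and Pag1 at -1.24 ± 0.32 (other probes -0.59 and -0.25). Sh2d1a and Cd8a were not above background in either RNA on any array.

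**Figure D4:**
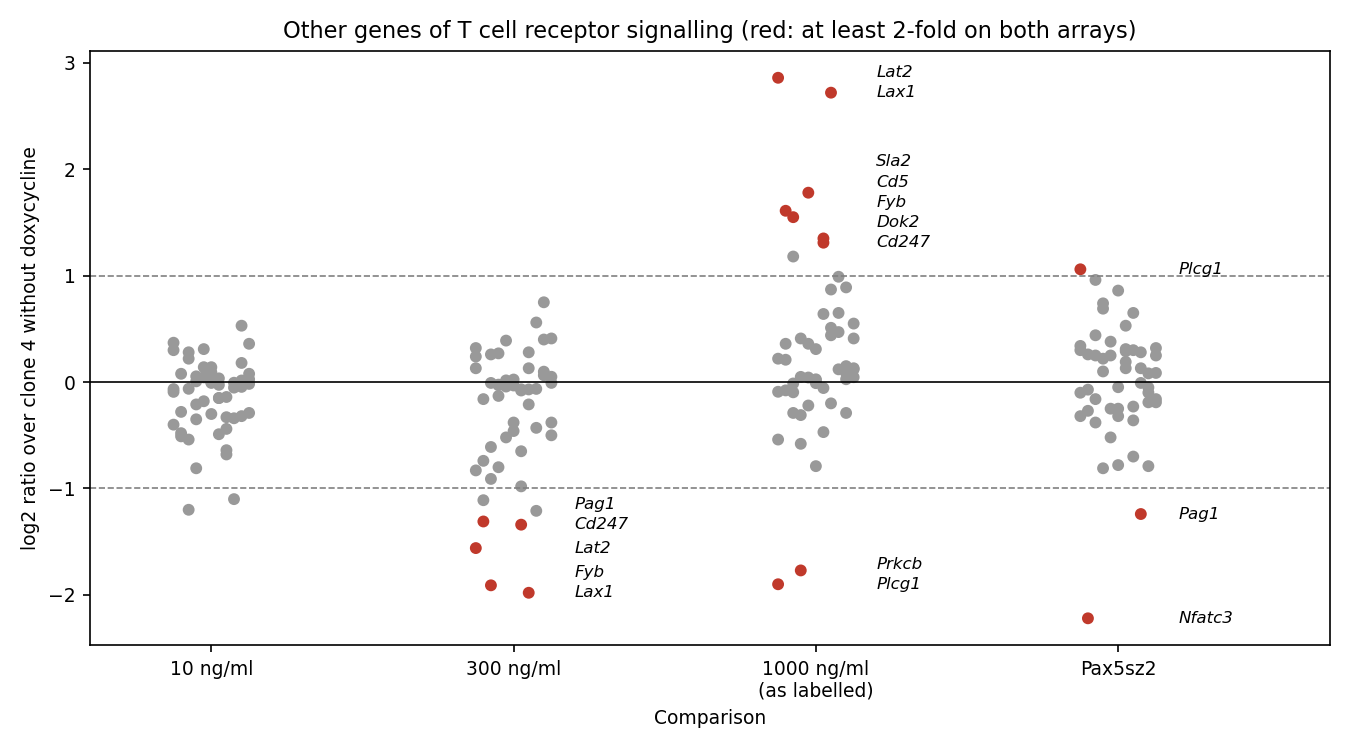
Log2 ratio (y axis) of the tested genes of the signalling list in each comparison (x axis), 1 point per gene, spread sideways only for legibility. Tec and Nfatc1 have no point at 300 ng/ml. Red points passed the 2-fold size on both arrays and are named; dashed lines mark 2-fold. At 300 ng/ml the named genes are all on the lower side, at -1.31 to -1.98, and at 1000 ng/ml as labelled 7 are on the upper side.

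The genes whose ratios over the 8 arrays lay closest to those of a member were found by the mean absolute difference of the log2 ratio. Only features with a gene name were searched, and names of clone, predicted-gene or accession form were left out. For Zap70 they were Kbtbd11 (0.16), Tmem229b (0.17) and Adcy7 (0.17), for Grap2 Hgfac, Pqlc3 and Daam1 (0.12 each), and for Cd28 Anks1 (0.16), Pcyt1a (0.20) and Socs2 (0.21). For Thy1 they were Fut4 (0.11), Cox7a1 (0.11) and Susd3 (0.13), near 0 at the doses and between 1.53 and 1.67 in Pax5sz2. No feature searched lay as close to Cd7. The nearest, Klhl30, differed by 0.41, followed by Pitpnc1 (0.44) and Ndrg2 (0.46). The control RNA carries the same label on these arrays, and the distance is a description.

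Markers of the cell types the cultures could hold were read beside these results, with the same 2-fold size and the shares of all features given above for each comparison. Of the T lineage list, Bcl11b and Cd8a were not above background in either RNA on any array, and Cd3e, Cd8b1, Cd5, Cd6 and Lef1 were above background in both on all 8. Of its 14 tested genes, 0 passed the size at 10 ng/ml and 1 was lower (Cd247) at 300 ng/ml. As labelled, 2 were higher (Cd247 and Cd5) and 1 lower (Lef1) at 1000 ng/ml, and 1 was lower (Lef1) in Pax5sz2.

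Most of the pro-B list (8 of 12, with Cd79a, Cd79b, Ebf1, Rag1 and Il7r among them) was above background in both RNAs on all arrays. The cells are labelled as pro/preB cells. Blnk, the adaptor of the pre-B cell receptor, was at -0.90 ± 0.13 for 10 ng/ml, 2.62 ± 0.12 for 300 ng/ml, -4.20 ± 0.27 for 1000 ng/ml as labelled and -3.41 ± 0.03 for Pax5sz2. In the 1000 ng/ml pair the receptor chain Cd79a (-1.44 ± 0.32) and the transcription factor Ebf1 (-1.09 ± 0.11) were also lower. The summed pro-B level there was 91700 to 102000 in the named RNA against 184000 to 213000 in the control.

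At 300 ng/ml, where Zap70 and Cd7 were lower, 3 of 7 tested genes of the NK list passed the size and were lower, and its summed level was 1610 to 1680 in the named RNA against 13000 to 13100 in the control. They were Tyrobp, the adaptor DAP12, at -3.39 ± 0.0041, Fcer1g, the Fc receptor gamma chain, at -3.41 ± 0.17 and the granule gene Nkg7 at -2.46 ± 0.44. The rest of its tested genes did not pass. Klrb1c was at -0.76 ± 0.012, Gzma at -0.18 ± 0.063, Klrd1 at 0.0016 ± 0.069 and Tbx21 at 0.079 ± 0.27. Of 12 myeloid genes 3 were lower (Mpo, Ctsg and Fcgr3; summed level 9330 to 14300 against 36200 to 40400). In the 1000 ng/ml pair as labelled the same genes, 3 of 7 and 3 of 12, were higher. The NK list's summed level there was 15600 to 20300 in the named RNA against 1230 to 1610 in the control, and the myeloid list's 33700 to 41800 against 5640 to 6900.

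With 10 ng/ml, Tyrobp was lower (1 of 7, -1.35 ± 0.15) and the summed NK level was 7070 to 8500 against 11200 to 15700, while Zap70 was at -0.066. The myeloid list had 1 of 12 higher (Cebpb) and 0 lower there, with a summed level of 36800 to 44900 against 36700 to 37600, while Cd7 was lower. In Pax5sz2, where Cd7 was higher, 2 of 12 myeloid genes were lower (Ctsg at -1.69 ± 0.27 and Fcgr3 at -4.08 ± 0.15; summed level 18000 to 18900 against 40600 to 41600). Of the 11 genes of the NK list, Ncr1, Prf1 and Eomes were not above background in either RNA on any array. Others were present: Klrb1c was above background in the named RNA on 8 arrays and in the control RNA on 6, Tbx21 and Gzma on 6 and 6, and Nkg7 on 8 and 7. The part of such cells in the ratios of Zap70 and Cd7 was not tested.

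In Pax5sz2, where Thy1 and Cd7 were higher, the NK genes Nkg7 (1.64 ± 0.033), Klrd1 (4.58 ± 0.35) and Gzma (1.40 ± 0.20) were higher and Fcer1g was lower (-1.09 ± 0.043), so that 3 of 7 were higher and 1 lower. The summed NK level was 16100 to 17800 against 17000 to 19100 in the control. Of 12 pro-B genes 3 were higher there, the surrogate light chain genes Vpreb1 at 7.88 ± 0.94, Igll1 at 5.65 ± 0.44 and Vpreb2 at 4.23 ± 0.35. Another 3 were lower, Dntt at -4.89 ± 0.32, Blnk and Ebf1 (-1.58 ± 0.33).

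Stromal feeder genes, a list that includes Thy1, had 4 of 13 higher in Pax5sz2 (Sparc, Cxcl12, Vcam1 and Thy1 itself), with a summed level of 37100 to 38500 against 20500 to 21200. At 10 ng/ml 3 of 13 (Col3a1, Cxcl12 and Vcam1) and at 300 ng/ml 7 of 13 stromal genes were higher (summed levels of 37500 to 43100 against 18700 to 20200, and 40300 to 49600 against 13200 to 19500), and Thy1 stayed at -0.068 and -0.19. Col1a2 had no mean ratio at 300 ng/ml, because outlier spots were left out, and could not pass there. The sums at that dose may therefore lack it on an array. In the 1000 ng/ml pair 0 of 13 passed the size. Of the 7 tested genes of the dendritic list, which includes Cd7, only Cd7 itself passed the size in Pax5sz2 and with 10 ng/ml. Siglech and Itgax were lower beside Cd7 with 300 ng/ml, and in the 1000 ng/ml pair as labelled Flt3 was higher beside it. The list's summed level was higher in the named RNA at 10 and 300 ng/ml, where Cd7 was lower (58400 to 89300 against 41100 to 50500, and 67200 to 69700 against 45700 to 48000). The list's median ratio was below 0 at both doses, at -0.45 and -1.12. Bst2 was at 0.90 and 0.76 and Irf8 at -0.10 and 0.09, and every other tested gene of the list was below 0 at both. The part of these cells in the ratios of Thy1 and Cd7 was not tested.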

How the data were processed

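Total RNA of 4 comparisons was hybridised to 8 two-colour Agilent arrays. The deposited files of each array, per the file headers, give mean spot and median background intensity per channel without normalization, processed intensity after background and dye correction by Feature Extraction 10.5.1.1, and a log10 ratio of Cy5 over Cy3. The series' deposited log10 table equals that ratio up to sign, to within 5e-06. With R 4.3.3 and limma 3.58.1, the mean signals were corrected by normexp (offset 50) and normalized within arrays by loess, with control spots at weight 0. Outlier spots (37 to 295 per array) were left out and no spot was saturated. Ratios were turned to named over control RNA; levels came from Aquantile normalization. The offset draws ratios of dim probes towards 0.

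A probe entered the tests if, in 1 or more comparisons, both arrays had the same RNA well above background there (29464 probes, 20702 features). Of 41174 probes, 34851 had a gene name and 6323 kept their own. Each dye-swapped pair counted as 1 sample, its mean. Single comparisons used the 2-fold size (log2 of 1) with no test. limma fits are two-sided with Benjamini-Hochberg adjustment over all features, and hold no estimate of how the control RNA varies. Bounds set the bright RNA's mean against the higher of each array's detection level and the dim probe's own level. The genes named are the 10 members, pathway genes past the size and the 3 nearest named features of each member past the size. Genes of 6 marker lists are named as examples, chosen after their values were seen, with counts for each whole list. Members and lists were chosen with earlier results of these data known. Figures used Python 3.11.15 with matplotlib 3.10.9. Probe coordinates are those of the file headers' design (mm8), for which no gene annotation was used here, so exons and UTRs are not given.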

Additional observations from a re-analysis of the deposited data

Results flagged for a closer look

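Zap70 was lower on both arrays at 300 ng/ml (log2 ratio -1.08) and higher on both arrays at 1000 ng/ml as labelled (1.24). Cd7 was lower on both arrays at 10 ng/ml (-1.57) and at 300 ng/ml (-1.86), and higher on both at 1000 ng/ml as labelled (1.28) and in Pax5sz2 (1.22). These opposite directions drew attention because every array of one comparison went one way and every array of the other the opposite way. The differences between comparisons were not tested. The control RNA carries the same label in each of them, and the direction of the 1000 ng/ml pair is not settled. With that pair turned, Zap70 and Cd7 would be lower there too. The opposite directions of Cd7 between the 10 and 300 ng/ml doses and Pax5sz2 would remain.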

How the results depend on the processing

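With 1 RNA sample per comparison, the 2 arrays limit the precision, and dim probes (Cd3d, Cd3g, the second probes of Cd28, Cd3e and Thy1) give little beyond background. Ratios moved by over 1 SD in 25 of 40 cases with processed signals, 23 of 40 with the deposited series table, 21 of 40 with median centring, 21 of 40 with an offset of 10 and 10 of the 12 that could move with the mean over a gene's detected probes; under these settings 0 of those past the size changed sign. With median centring in place of loess, 1 gene passed the size at 300 ng/ml (Cd7, not Zap70) and 2 at 1000 ng/ml (Cd28 and Cd7). Of all features, 496 passed at 300 ng/ml and 193 at 1000 ng/ml, against 759 and 519 with loess. Median centring also moved the share of higher genes among all features past the size from 31.6% to 49.3% at 10 ng/ml, from 34.9% to 19.6% at 300 ng/ml and from 44.3% to 69.4% in Pax5sz2. With the mean over a gene's detected probes, 2 passed at 1000 ng/ml (Zap70 and Cd7) and 1 in Pax5sz2 (Cd7). Of all features, 432 and 825 passed there, against 519 and 1065 with 1 probe per gene. On single arrays the counts of the 10 genes ran from 3 to 4 at 300 ng/ml and from 4 to 5 at 1000 ng/ml. The counts of all features rose too, to 1134 and 2336 at 300 ng/ml and to 695 and 778 at 1000 ng/ml. Lat and Cd28 at 300 ng/ml passed on the array with the named RNA in Cy5 and Grap2 on the other. With processed signals, which carry no offset, ratios of dim probes grew: Cd3d to -1.67 (past the size) and Cd7 to -3.26 at 300 ng/ml, and Zap70, Cd28 and Cd7 to 2.60, 2.84 and 2.80 at 1000 ng/ml.

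The mean doxycycline fit passed 0 features with each of the lower doses left out and 3102 without the 1000 ng/ml pair, a range of 0 to 3102 (0 to 2 of the 10 genes), and 82 with arrays as samples. The Pax5sz2 fit passed 0 to 926 features (0 to 1 of the 10 genes) with a dose left out, 85 with the 1000 ng/ml pair turned, 2 with median centring, 9 with no filter on dim probes and 1902 with arrays as samples, where 1 of the 10 genes passed (Thy1). The named and the control RNA were paired on each array. Replicates could not be paired across comparisons, because each comparison rests on 1 RNA sample and the labels give no replicate numbers that the groups share.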
